A study of Mus musculus with 18 samples.

Results

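The comparison described here is between wild-type colorectal tumours of 2 mouse lines, an Il1f9 line and an Il1f5 line. The members are 4 of the 18 libraries deposited, namely 2 labelled Il1f9+/+ and 2 labelled Il1f5+/+, and they were chosen by tissue and genotype label. All groups were C57BL/6 mice, and the tumours were induced with azoxymethane (AOM), a colon carcinogen, and dextran sulfate sodium (DSS), a polymer that injures the colon lining. The other libraries used for comparison were tumours labelled Il1f9-/- and Il1f5-/- (n = 2 each) and wild-type distal colon taken after 5 days of 2.5% DSS and 2 days of water (Il1f9+/+, n = 2; Il1f5+/+, n = 3). Knockout colon of the same colitis model (Il1f9-/-, n = 2, and Il1f5-/-, n = 3) entered the fits with colitis libraries, where it shared in the estimate of the spread. The dosing schedule of the tumour model, the age and sex of the mice, whether wild types were littermates of the knockouts, how the knockouts were made, and whether a tumour library holds 1 tumour or several are not given in the sources used here. Nothing says that the 2 tumour libraries of a group came from separate animals, so the p-values measure the spread between these libraries, which may in part be technical. Each line has its own deposited tumour table, so line and table cannot be told apart.

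IL-36 cytokines belong to the IL-1 family and are made largely by epithelial and myeloid cells. The agonists IL-36 alpha (Il1f6), beta (Il1f8) and gamma (Il1f9) bind the receptor chain Il1rl2, which signals together with Il1rap, and the product of Il1f5 occupies the receptor without signalling. In colon, IL-36 signalling is known for neutrophil recruitment and for wound repair.

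The targeted genes were read first as a check of the labels. Il1f9 (chromosome 2, 24186476 to 24193568 in the deposited tables) had 1652 and 752 counts in the libraries labelled Il1f9+/+ and 2 and 0 in those labelled Il1f9-/-, as its labels say. Il1f5 (chromosome 2, 24276954 to 24283426) went against its labels. It had 0 counts in both tumours labelled Il1f5+/+ and 211 and 102 counts in the tumours labelled Il1f5-/-. In colitis, Il1f5 again had 0 counts in the libraries labelled Il1f5+/+ and 36, 43 and 45 in those labelled Il1f5-/-, and it had 0 counts in every library of the Il1f9 line. A count of 0 allows up to 3 counts. Whether the Il1f5 labels are exchanged, or the counted transcript lies outside the deleted part, was not tested. With exchanged labels, the comparison below would set Il1f9 wild types against Il1f5 knockouts. Group names below are therefore those of the labels, and every direction is that of the tumours labelled Il1f9+/+ against the tumours labelled Il1f5+/+.

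The 4 libraries held between 17472257 and 19572633 counts. The epithelial genes Epcam and Vil1 were well expressed in all 4, at 2359 and 2333 CPM (read counts scaled to library depth by TMM factors) for Epcam in the Il1f9+/+ tumours and 1462 and 1588 in the Il1f5+/+ tumours. The libraries also differed by line in their makeup. Long noncoding, antisense and unclassified transcripts took 0.383 and 0.457% of counts in the Il1f9+/+ tumours and 1.01 and 1.05% in the Il1f5+/+ tumours. Protein-coding genes over 6000 bases took 23.8 and 25.6% against 30.6 and 29.2%, and ribosomal protein genes 6.57 and 6.69% against 4.11 and 4.57%. Per library total, mitochondrial tRNAs stood at 176 and 234 CPM against 21.6 and 26.8, and the nuclear RNA Malat1 at 261 and 415 against 1418 and 1173. These values move with line in the wild-type tumours, and their part in the results there was not tested, except for gene length, for which fits with an offset are given. In the knockout tumours, the noncoding share and the mitochondrial tRNAs separated by line as well, while the long-gene, ribosomal protein and Malat1 values of the lines overlapped. In each pair of values the first is replicate 1 and the second replicate 2.

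Tumours of the lines differed at many genes. Of 17859 genes tested, 2999 (16.8%) were higher in the Il1f9+/+ tumours and 2097 (11.7%) were lower, at an adjusted p under 0.05 (edgeR quasi-likelihood test, Benjamini-Hochberg), which is the meaning of "called" throughout. The change was at least 2-fold for 1323 of the higher and 1531 of the lower genes. Both Il1f9+/+ libraries lay above both Il1f5+/+ libraries for 6857 genes (38.4%) and below them for 6302 (35.3%), called or not. All 5096 called genes were among these, so non-overlap given below for a called gene is no further support for its call. Between all 8 tumours, the first principal component, with 52.8% of the variance, ran from 31.5 to 53.9 in the Il1f9 line and from -46.2 to -37.6 in the Il1f5 line, knockouts included. The balance of the calls depended on scaling. With library totals in place of TMM factors, the median log2 difference of all genes moved by -0.41, and the calls became 1174 higher and 4830 lower, 19.6% higher in place of 58.9%. With 1 library left out the calls ranged from 1008 (without Il1f5+/+ replicate 1) to 1961 (without Il1f9+/+ replicate 2) higher, and from 512 (without Il1f9+/+ replicate 1) to 930 (without Il1f9+/+ replicate 2) lower. The genes called in all 4 such fits numbered 836 higher and 387 lower. Unless a library is named beside it, each gene given below as having risen or fallen is among these.

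**Figure D1:**
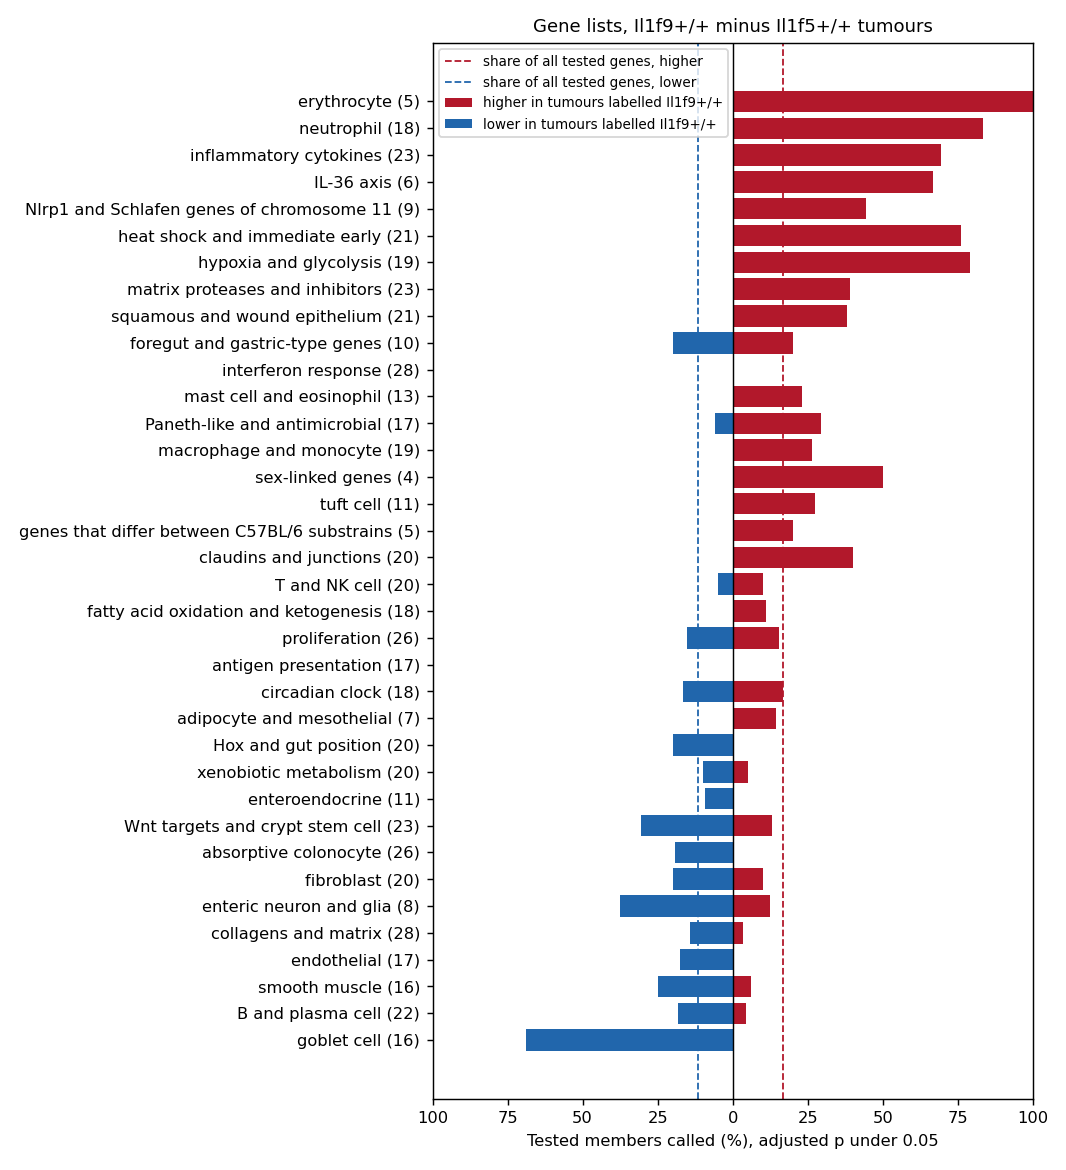
Called members of each gene list as a percentage of the members tested, higher in Il1f9+/+ tumours to the right and lower to the left, with the share of all genes tested (16.8% and 11.7%) as dashed lines, the number tested in brackets, and lists in order of their median log2 difference. Neutrophil, cytokine, hypoxia and heat shock lists have 15 of 18, 16 of 23, 15 of 19 and 16 of 21 members higher, and the goblet list, at the bottom, 11 of 16 lower.

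Within the IL-36 axis, 4 of 6 tested genes were higher in the Il1f9+/+ tumours and none was lower, with a median log2 difference of 2.32 beside 0.0246 for all genes. Il1f5 was among the 6 through its counts in the knockout tumours. It had 0 counts in the wild-type tumours and could not differ here. Il1f9 itself stood at 101 and 42.2 CPM in the Il1f9+/+ tumours and at 6.96 and 10.4 CPM in the Il1f5+/+ tumours. The groups did not overlap, and replicate 1 of the Il1f9+/+ tumours was the highest (log2 difference 3.04 ± 0.46 SE, adjusted p = 0.00417 from edgeR), with a difference of 2.30 when that library was left out. Il1f6, which encodes IL-36 alpha, was at 4.33 and 4.32 CPM against 0.654 and 0.49 (2.90 ± 0.41, adjusted p = 0.00195). Il1rap, the signalling chain that IL-36 shares with IL-1 and IL-33, was at 35.2 and 24.2 CPM against 8.60 and 8.08 (1.83 ± 0.25, adjusted p = 0.0018). Il1f8 was also called (2.82 ± 0.70, adjusted p = 0.0174), but lost its call without Il1f5+/+ replicate 1 or Il1f9+/+ replicate 2. Its difference was 3.78 without Il1f5+/+ replicate 2. The receptor chain Il1rl2 had 4.94 and 5.95 CPM against 6.87 and 8.57 and did not pass the test (-0.50 ± 0.35, adjusted p = 0.297). In bulk tissue, fewer cells of a kind and less RNA per cell cannot be told apart, here and in every list below.

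Genes of neutrophils and of their recruitment formed one of the groups with the most members higher in the Il1f9+/+ tumours. Of 18 tested members of the neutrophil list, 15 rose and none fell, with a median log2 difference of 3.44. The summed level of the list was 5383 and 2989 CPM in the Il1f9+/+ tumours and 558 and 1066 CPM in the Il1f5+/+ tumours. Most of the sum in the Il1f9+/+ tumours came from the chemokine genes Cxcl5 and Cxcl2. In Il1f5+/+ replicate 2, Ltf alone had 484 of the 1066 CPM. The sum is therefore not a measure of neutrophil number. With 1 library left out, 10 to 15 members were called higher, and 1 was called lower without Il1f5+/+ replicate 1. Cxcl5, a chemokine that draws neutrophils through their receptor Cxcr2, was at 2004 and 1599 CPM against 188 and 303 (2.88 ± 0.27, adjusted p = 0.000718). Cxcl2 (chromosome 5, 90903871 to 90905938), which acts on the same receptor, was at 1701 and 553 CPM against 56.6 and 49.6 (4.41 ± 0.54, adjusted p = 0.00306). Its difference was 3.40 without Il1f9+/+ replicate 1 and 5.02 without Il1f9+/+ replicate 2. Cxcr2 was at 84.2 and 45 CPM against 9.77 and 7.5 (2.90 ± 0.35, adjusted p = 0.00155). In each of these the groups were well apart, and Il1f9+/+ replicate 1 was the highest library. Trem1, an activating receptor of myeloid cells, was at 168 and 70.6 CPM against 9.16 and 9.55 (3.67 ± 0.38, adjusted p = 0.00123), and Mmp9, a neutrophil gelatinase, at 214 and 130 CPM against 36.3 and 32.6 (2.32 ± 0.25, adjusted p = 0.00116). The calprotectin genes S100a8 and S100a9 rose as well, with log2 differences of 4.43 ± 0.57 and 4.17 ± 0.54. S100a8 was at 1533 and 630 CPM against 49.1 and 51.0. Mpo, a granule enzyme made in immature neutrophils, lay between 0.049 and 0.28 CPM in the 4 tumours and was not tested. Ltf, which encodes lactoferrin, was highest in an Il1f5+/+ tumour, at 69.3 and 484 CPM there and 115 and 65.0 CPM in the Il1f9+/+ tumours (-1.62 ± 0.98, adjusted p = 0.275). Without Il1f9+/+ replicate 1, the log2 differences were 2.93 for Trem1, 3.67 for S100a8 and 3.42 for S100a9.

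Inflammatory cytokines went the same way, with 16 of 23 tested genes higher, none lower and a median log2 difference of 3.20. Without either library of the Il1f5+/+ tumours 8 members were called. Il1b, the IL-1 family cytokine of myeloid cells, was at 1313 and 486 CPM in the Il1f9+/+ tumours and at 89.0 and 81.4 CPM in the Il1f5+/+ tumours (3.40 ± 0.46, adjusted p = 0.0036). Osm, an IL-6 family cytokine, was at 184 and 79.2 CPM against 11.2 and 10.5 (3.59 ± 0.37, adjusted p = 0.00121). Il17a was at 9.34 and 3.76 CPM against 0.514 and 0.392 (3.83 ± 0.54, adjusted p = 0.00197). For all of these the groups did not overlap, and Il1f9+/+ replicate 1 was the highest library. Without that library the log2 differences were 2.53 for Il1b, 2.88 for Osm and 3.05 for Il17a. More even were Il23a, a subunit of the cytokine that sustains IL-17 cells, at 44.3 and 39.6 CPM against 8.41 and 9.5 (2.23 ± 0.20, adjusted p = 0.000666), and Il33, an epithelial and stromal alarmin, at 178 and 124 CPM against 34.0 and 33.1 (2.17 ± 0.21, adjusted p = 0.000718). Ptgs2, which encodes cyclooxygenase 2, was at 415 and 215 CPM against 45.3 and 23.3 (3.20 ± 0.45, adjusted p = 0.00426). None of 28 tested interferon response genes and none of 17 antigen presentation genes was called, and edgeR at an unadjusted p under 0.05 and the DESeq2 Wald test likewise gave 0. With no filter on low counts, 18 interferon response genes were called higher and 1 lower, and 2 antigen presentation genes in each direction. The interferon median was 0.71 and turned with 1 library, at -0.42 without Il1f9+/+ replicate 1 and 1.32 without Il1f9+/+ replicate 2. Ifng, the gene of interferon gamma, had 0.281 to 2.20 CPM in the Il1f9+/+ tumours and 0.049 to 0.187 in the others (3.29 ± 2.30, adjusted p = 0.328).

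**Figure D2:**
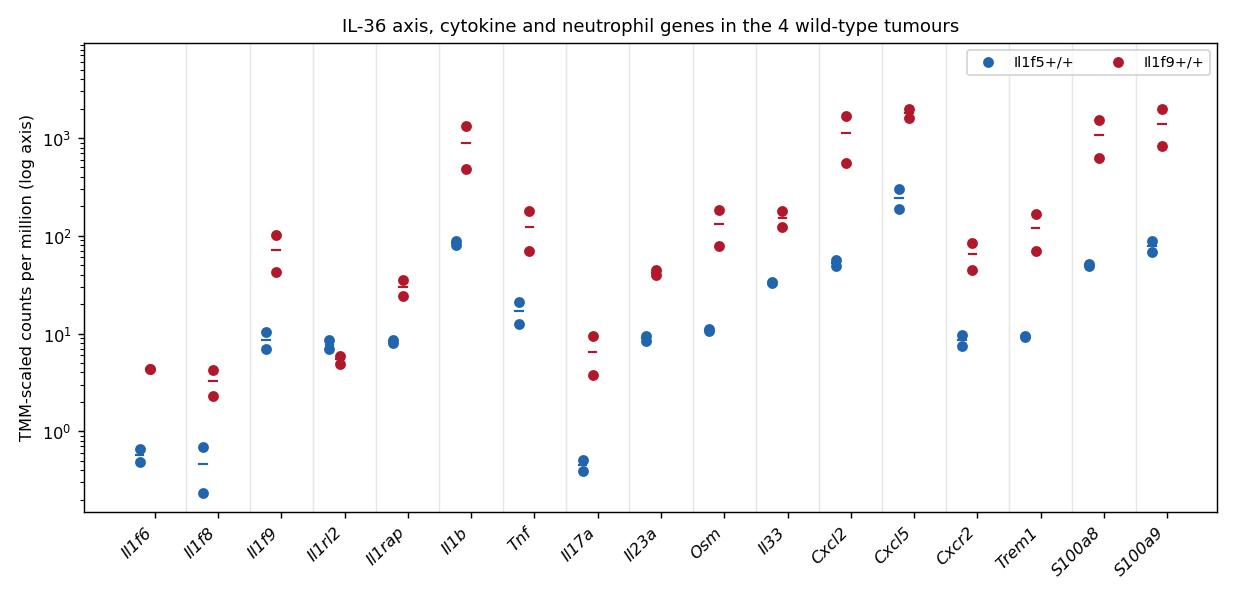
CPM on a log axis of IL-36 axis, cytokine and neutrophil genes in each of the 4 wild-type tumours, with a point for each library and a short line at each group mean. The Il1f9+/+ points lie above the Il1f5+/+ points for every gene shown except Il1rl2, for example 1701 and 553 against 56.6 and 49.6 CPM for Cxcl2.

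Of 19 macrophage and monocyte genes, 5 were called higher, with 1 called without Il1f9+/+ replicate 1, 3 without Il1f5+/+ replicate 2 or Il1f9+/+ replicate 2, and 2 with a gene length offset. With library totals 2 were called in each direction. Itgam, an integrin of neutrophils and monocytes, was among the 5 at 33.3 and 21.4 CPM against 6.50 and 5.93 (2.14 ± 0.33, adjusted p = 0.00299). Adgre1, the first gene of the list, was at 16.2 and 16.4 CPM against 12 and 8.92 and did not pass the test (0.64 ± 0.22, adjusted p = 0.0527). The summed macrophage level was 2219 and 2222 CPM against 1110 and 745. Among 20 T and NK cell genes, 2 were called higher and 1 lower, and none held when any 1 library was left out. Both counts are below the shares of all genes tested, 16.8% higher and 11.7% lower. The median of the T and NK cell list was 0.10, and it was -0.33 with library totals and -0.05 with a length offset. Cd3e, part of the T cell receptor complex, was at 1.77 and 1.12 CPM against 2.10 and 2.35 (-0.62 ± 0.52, adjusted p = 0.391). Of 22 B and plasma cell genes, 4 were called lower and 1, Sdc1, higher, with a median of -1.22. Sdc1, which epithelium also makes, was at 1101 and 972 CPM against 435 and 406 (1.30 ± 0.17, adjusted p = 0.00156). Igha, the heavy chain of IgA, was at 414 and 225 CPM against 1111 and 734 (-1.53 ± 0.36, adjusted p = 0.0167), a call lost without Il1f5+/+ replicate 1 or Il1f9+/+ replicate 2. Without Il1f5+/+ replicate 1 none of the B and plasma cell genes was called lower, and 2 were without either Il1f9+/+ library. Of 132 immunoglobulin variable segments tested, 27 were lower and none higher, with a median of -1.42. Such segments are similar in sequence, and their reads may be split between copies.

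Goblet cells make the mucus layer of the colon, and most of their genes on the list were lower in the Il1f9+/+ tumours. Of 16 tested members, 11 fell and none rose, with a median log2 difference of -1.41. The summed level was 1747 and 1578 CPM in the Il1f9+/+ tumours and 4352 and 5708 CPM in the Il1f5+/+ tumours. With a length offset 12 fell, and without either library of the Il1f9+/+ tumours 7 did. Muc2 (chromosome 7, 141690340 to 141754693), the gel-forming mucin of the colon, was at 113 and 102 CPM against 1082 and 1907 (-3.80 ± 0.29, adjusted p = 0.000471). Fcgbp, a mucus protein that binds Muc2, was at 181 and 160 CPM against 811 and 896 (-2.32 ± 0.29, adjusted p = 0.00156). Agr2, a disulfide isomerase needed for Muc2 production, was at 137 and 124 CPM against 300 and 428 (-1.48 ± 0.21, adjusted p = 0.00191). Replicates of the Il1f9+/+ tumours were close to each other for these genes, and all lay below the Il1f5+/+ tumours. Atoh1, the transcription factor of the secretory lineage, was at 4.15 and 4.44 CPM against 11.1 and 16.0 (-1.66 ± 0.28, adjusted p = 0.00382), and the transcription factor Creb3l1 was at 22.3 and 15.4 CPM against 43.7 and 54.2 (-1.38 ± 0.25, adjusted p = 0.0055). The secreted products Tff3 and Zg16 did not pass the test. Tff3 was at 274 and 196 CPM against 315 and 329 (-0.46 ± 0.20, adjusted p = 0.111), and Zg16 at 219 and 176 CPM against 182 and 287 (-0.25 ± 0.24, adjusted p = 0.464). Clca1 was called at -2.68 ± 0.48 (adjusted p = 0.00919), a call lost without Il1f5+/+ replicate 1 or either Il1f9+/+ library.

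The transmembrane mucins Muc3 and Muc3a fell as well. Muc3 was at 54.3 and 63.0 CPM against 251 and 531 (-2.74 ± 0.32, adjusted p = 0.00155), and Muc3a at 1.34 and 1.80 CPM against 20.8 and 51.9 (-4.52 ± 0.52, adjusted p = 0.0016). Il1f5+/+ replicate 2 was the highest library for both, and without it the log2 differences were -2.09 for Muc3 and -3.71 for Muc3a. They are similar in sequence and neighbours on chromosome 5, so that reads may be split between them. Of 26 absorptive colonocyte genes 5 were called lower and none higher (median -0.56), and 2 were without Il1f5+/+ replicate 2 or Il1f9+/+ replicate 1, with 3 called lower without Il1f9+/+ replicate 2 and 12 with library totals. Slc26a3, the chloride and bicarbonate exchanger of surface cells, was at 6.71 and 14.8 CPM against 18.2 and 58.0 (-1.82 ± 0.66, adjusted p = 0.089). The enteroendocrine list had 1 of 11 genes called lower, which was Gcg (not called without Il1f5+/+ replicate 2 or either Il1f9+/+ library), and the tuft cell list 3 of 11 higher, among them Avil at 236 and 178 CPM against 64.3 and 62.2 (1.71 ± 0.19, adjusted p = 0.00104). Avil encodes the actin-binding protein advillin of tuft cells. Without Il1f5+/+ replicate 2, 1 tuft cell gene was called.

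**Figure D3:**
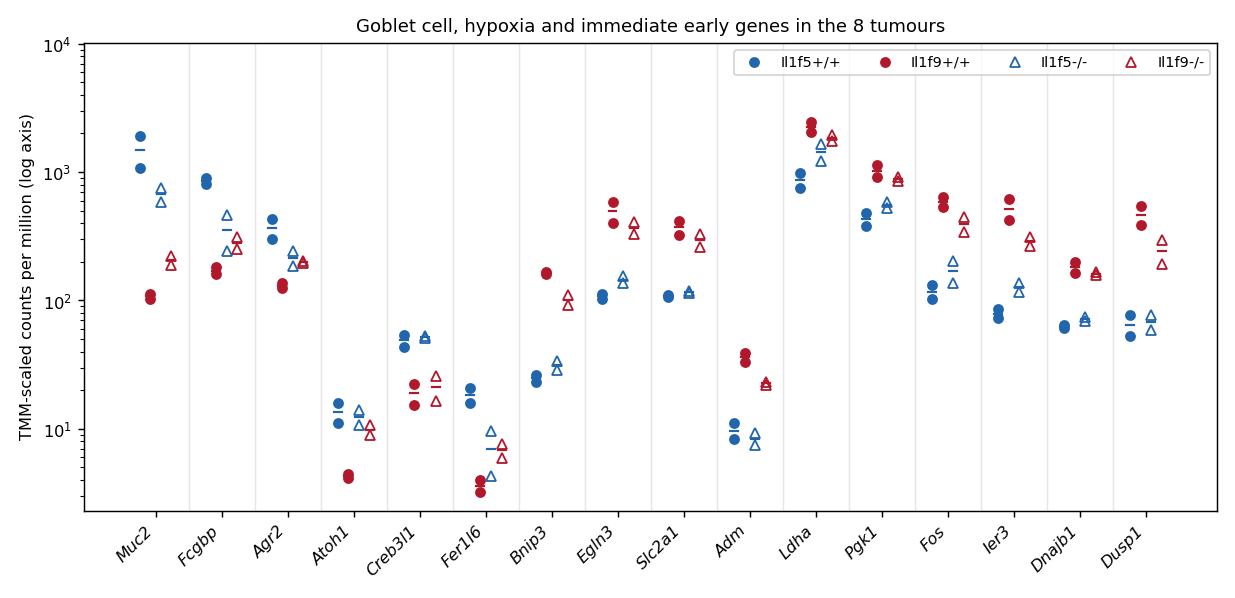
CPM on a log axis of goblet cell, hypoxia and immediate early genes in the 8 tumours, with filled circles for wild types, open triangles for knockouts and a short line at each group mean. Goblet genes lie lower, and hypoxia and immediate early genes higher, in the Il1f9+/+ than in the Il1f5+/+ tumours, as with Muc2 at 113 and 102 against 1082 and 1907 CPM and Bnip3 at 167 and 161 against 23.2 and 26.3 CPM.

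Genes of glycolysis and of the response to low oxygen rose together in the Il1f9+/+ tumours. Of 19 members, all tested, 15 were called higher and none lower, with a median log2 difference of 1.25, and with 1 library left out 10 to 13 were. The summed level was 12637 and 10533 CPM against 4632 and 5424. The hypoxia-inducible factors that drive such genes bind a core that often reads ACGTG. The promoter windows of the 4 members with the smallest p are printed because these genes moved together, from 250 bases before to 50 bases after the start (RefSeq, GRCm38.p6, each on the gene's strand, 5′ to 3′). Capitals mark ACGTG read on either strand, and CACGTG holds the core on both.
Bnip3, chr7:138909457-138909756, minus strand: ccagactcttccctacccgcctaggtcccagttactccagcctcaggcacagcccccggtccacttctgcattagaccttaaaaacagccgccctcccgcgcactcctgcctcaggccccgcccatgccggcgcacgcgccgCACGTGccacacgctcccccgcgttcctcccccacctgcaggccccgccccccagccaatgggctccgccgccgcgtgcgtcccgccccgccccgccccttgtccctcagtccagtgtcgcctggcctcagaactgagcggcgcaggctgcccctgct
Egln3, chr12:54203825-54204124, minus strand: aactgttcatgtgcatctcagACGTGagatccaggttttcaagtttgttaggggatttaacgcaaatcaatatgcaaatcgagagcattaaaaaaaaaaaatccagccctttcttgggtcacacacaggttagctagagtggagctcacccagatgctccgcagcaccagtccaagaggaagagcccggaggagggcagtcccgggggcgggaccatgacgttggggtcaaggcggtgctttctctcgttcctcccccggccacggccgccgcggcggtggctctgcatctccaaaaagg
Slc2a1, chr4:119108495-119108794, plus strand: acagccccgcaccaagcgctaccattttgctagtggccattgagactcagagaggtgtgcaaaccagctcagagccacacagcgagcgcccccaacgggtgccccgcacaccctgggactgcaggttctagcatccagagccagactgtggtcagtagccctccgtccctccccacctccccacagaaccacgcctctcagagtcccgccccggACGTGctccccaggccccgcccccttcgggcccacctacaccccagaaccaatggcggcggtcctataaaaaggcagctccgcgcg
Adm, chr7:110627407-110627706, plus strand: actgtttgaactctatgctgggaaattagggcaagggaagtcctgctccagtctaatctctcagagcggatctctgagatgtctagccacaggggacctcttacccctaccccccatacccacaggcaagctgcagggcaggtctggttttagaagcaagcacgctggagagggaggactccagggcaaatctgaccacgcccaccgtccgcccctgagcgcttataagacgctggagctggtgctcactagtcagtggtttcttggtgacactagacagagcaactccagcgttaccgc
Adm was the member of these with no match. The core is short, and 19.6% of all 32851 windows of 300 bases held it. By gene, 13 of the 18 list members with a window had a match in at least 1, beside 21.8% of 27025 genes. The list was chosen as hypoxia and glycolysis genes and is counted here whether called or not. That share is therefore no result about these tumours, and a part of hypoxia-inducible factors was not tested. A match is not a binding site, and its absence concerns this window alone.

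Bnip3, a mitochondrial protein of mitophagy, was at 167 and 161 CPM in the Il1f9+/+ tumours and at 23.2 and 26.3 CPM in the Il1f5+/+ tumours (2.73 ± 0.17, adjusted p = 0.000227). Egln3, a prolyl hydroxylase that marks hypoxia-inducible factor for decay, was at 590 and 398 CPM against 112 and 103 (2.20 ± 0.22, adjusted p = 0.000718). Slc2a1, the glucose transporter GLUT1, was at 419 and 323 CPM against 107 and 111 (1.76 ± 0.18, adjusted p = 0.000768). No group overlapped another in these genes, and replicates differed little beside the distance between lines. Adm, the vasodilator peptide adrenomedullin, was at 39.1 and 33.1 CPM against 11 and 8.38 (1.89 ± 0.22, adjusted p = 0.0012). Glycolytic enzymes moved by less. Ldha was at 2439 and 2054 CPM against 755 and 993 (1.36 ± 0.21, adjusted p = 0.00296), Pgk1 at 1134 and 922 CPM against 383 and 482 (1.25 ± 0.18, adjusted p = 0.00216), and Pkm at 3195 and 2597 CPM against 1082 and 1250 (1.31 ± 0.19, adjusted p = 0.00221). Car9, a carbonic anhydrase of hypoxic tissue, did not pass the test, at 76.0 and 73.9 CPM against 36.3 and 58.2 (0.67 ± 0.28, adjusted p = 0.102).

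Heat shock and immediate early genes, which respond to stress and stimulation within minutes to hours, had 16 of 21 members called higher and none lower (median 1.63), and 11 to 15 with 1 library left out. Fos was at 639 and 532 CPM against 131 and 103 (2.33 ± 0.24, adjusted p = 0.000762). Ier3 was at 618 and 421 CPM against 85.3 and 72.4 (2.72 ± 0.22, adjusted p = 0.000471). Dnajb1, a cochaperone of HSP70, was at 200 and 164 CPM against 64.2 and 60.8 (1.54 ± 0.15, adjusted p = 0.000718). All Il1f9+/+ libraries lay above all Il1f5+/+ libraries for 19 of the 21, beside 38.4% of all genes tested.

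Genes of wound and squamous epithelium had 8 of 21 members called higher and none lower (median 0.98), with 4 called without Il1f9+/+ replicate 1 and 5 without Il1f5+/+ replicate 1. Krt7, a simple epithelial keratin, was at 1268 and 980 CPM against 443 and 431 (1.36 ± 0.18, adjusted p = 0.00156), and Ly6d at 340 and 345 CPM against 85.6 and 94.3 (1.93 ± 0.30, adjusted p = 0.0037). Anxa1, an annexin of wound epithelium, was at 2677 and 2352 CPM against 583 and 1023 (1.65 ± 0.28, adjusted p = 0.00435). Krt5, the basal keratin of stratified epithelium, was uneven within both groups, at 0.183 and 7.92 CPM in the Il1f9+/+ tumours and at 13.6 and 176 CPM in the Il1f5+/+ tumours (-4.53 ± 3.13, adjusted p = 0.336). Of 20 claudin and junction genes, 8 were called higher and none lower, with 4 called without Il1f5+/+ replicate 1 and 3 without Il1f5+/+ replicate 2 or Il1f9+/+ replicate 1. With library totals 3 junction genes were called higher and 4 lower (median 0.06), and 2 were called lower by the Wald test, with the 4 wild types alone or with all 18 libraries. Cldn4, a tight junction protein, was at 2530 and 1568 CPM against 515 and 372 (2.21 ± 0.26, adjusted p = 0.00121).

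Wnt target and crypt stem cell genes had 3 of 23 called higher and 7 lower (median -0.47), beside 16.8% and 11.7% of all genes tested. The higher calls are below that share and by number are no result about the list. With library totals 12 were called lower. Lower calls numbered 10 by the Wald test, 9 with no filter and 6 with the replicate block. Fewer members were called lower without Il1f5+/+ replicate 1 or Il1f9+/+ replicate 1. The list median was -0.22 and -0.21 in those fits, -0.63 without Il1f5+/+ replicate 2 and -0.75 without Il1f9+/+ replicate 2. Smoc2, a stem cell marker of the crypt, was at 42.9 and 46.7 CPM in the Il1f9+/+ tumours against 176 and 122 CPM (-1.73 ± 0.25, adjusted p = 0.00259). Lrig1, which restrains growth factor receptors in stem cells, was at 18.6 and 18 CPM against 67.0 and 61.6 (-1.81 ± 0.27, adjusted p = 0.00261). Cd44, a hyaluronan receptor and Wnt target, went the other way, at 785 and 655 CPM against 165 and 184 (2.05 ± 0.16, adjusted p = 0.000471). The stem cell receptor Lgr5 was uneven, at 9.22 and 27.2 CPM against 82.1 and 41.0 (-1.75 ± 0.57, adjusted p = 0.0648), and Axin2, a feedback target of Wnt, was at 212 and 240 CPM against 352 and 282 (-0.49 ± 0.18, adjusted p = 0.0721). Proliferation genes had 4 of 26 called in each direction, near the 16.8% higher and 11.7% lower of all genes tested. With library totals 0 proliferation genes were called higher and 10 lower. Their median was 0.04, and it was -0.01 with DESeq2 size factors, -0.38 with library totals and -0.11 with a length offset. Top2a, a topoisomerase of dividing cells, was at 212 and 207 CPM against 253 and 256 (-0.28 ± 0.15, adjusted p = 0.187). No more than 2 proliferation genes were called in a direction with any 1 library left out.

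The stromal lists had medians below 0, and the number of calls depended on the fit. Collagen and matrix genes had 1 of 28 higher and 4 lower (median -0.76), beside 16.8% and 11.7% of all genes tested. Both Il1f9+/+ libraries lay below both Il1f5+/+ libraries for 21 of the 28, beside 35.3% of all genes tested. Without either library of the Il1f5+/+ tumours 1 matrix gene was called lower, and without Il1f9+/+ replicate 2 there were 2. There were 14 by the Wald test or with no filter, 13 with the 4 wild types alone, 15 with library totals and 17 with all 18 libraries. Fbln1, a basement membrane protein, was at 20.7 and 17 CPM against 51.5 and 50.1 (-1.43 ± 0.27, adjusted p = 0.00615), whereas Col1a1, the main fibrillar collagen, was at 111 and 76.3 CPM against 226 and 154 (-1.02 ± 0.47, adjusted p = 0.152). The smooth muscle list had 1 of 16 higher and 4 lower (median -0.95), the fibroblast list 2 and 4 of 20 (median -0.64) and the endothelial list 0 and 3 of 17 (median -0.87). Acta2, smooth muscle actin, was at 75.2 and 62.0 CPM against 99.5 and 91.2 (-0.48 ± 0.69, adjusted p = 0.642). At most 1 smooth muscle gene and 1 fibroblast gene was called lower with any 1 library left out, and no endothelial gene without Il1f9+/+ replicate 1. Lower calls reached 9 of the smooth muscle list with no filter, 9 of the endothelial list with the 4 wild types alone, and 6 of the fibroblast list in both of these fits. Matrix proteases and their inhibitors went the other way, with 9 of 23 higher and none lower (median 1.16), 5 of them without either Il1f5+/+ library. With library totals 6 were higher and 2 lower. Plat and Plau encode the tissue-type and urokinase-type plasminogen activators. Plat was at 1996 and 1122 CPM against 175 and 141 (3.30 ± 0.38, adjusted p = 0.00166), and Plau at 112 and 70.8 CPM against 25.2 and 19.8 (2.02 ± 0.26, adjusted p = 0.00161). Both had non-overlapping groups.

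All 5 tested erythrocyte genes were called higher (median 5.43), but only 1 with the replicate block. Their summed level was 675 and 278 CPM in the Il1f9+/+ tumours against 8.46 and 10.8 CPM in the Il1f5+/+ tumours. Hbb-bs was at 240 and 106 CPM against 2.48 and 1.96 (6.28 ± 1.27, adjusted p = 0.0241). The number called fell to 0 without either Il1f5+/+ library or Il1f9+/+ replicate 1, and to 3 without Il1f9+/+ replicate 2. Copies of the globin genes are nearly identical, so that counts of single copies are uncertain. The knockout tumours had summed levels between 15.3 and 121 CPM in both lines.

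Of the antimicrobial list, 5 of 17 genes were called higher and 1 lower (median 0.63), with 4 or 5 higher when 1 library was left out. Mmp7, a matrix protease of antimicrobial epithelium, was at 1049 and 877 CPM against 338 and 260 (1.69 ± 0.21, adjusted p = 0.00134). Duoxa2, the partner of an epithelial peroxide-forming oxidase, was at 403 and 214 CPM against 111 and 92.1 (1.61 ± 0.27, adjusted p = 0.00441). Both groups were apart for these genes. Fatty acid oxidation had 2 of 18 genes called higher and none lower, below the 16.8% and 11.7% of all genes tested. Its median of 0.09 turned to -0.32 with library totals, and without any library other than Il1f9+/+ replicate 2 there was 1 call. Outside the lists, the largest rises by the naming rule included Tmprss6, a serine protease, at 14.5 and 10.5 CPM against 0.748 and 0.441 (4.37 ± 0.53, adjusted p = 0.00127), and Wincr1, a long noncoding RNA, at 13.1 and 15.7 CPM against 0.608 and 0.539 (4.63 ± 0.39, adjusted p = 0.000471). The largest falls included the noncoding RNAs Fendrr and Meg3. Fendrr was at 0.915 and 1.35 CPM against 17 and 14.5 (-3.79 ± 0.46, adjusted p = 0.00131), and Meg3 at 0.610 and 0.505 CPM against 6.50 and 8.48 (-3.73 ± 0.55, adjusted p = 0.00245). The library kit did not mark strand, so that antisense partners cannot be told apart. As classes, noncoding transcripts were lower in the Il1f9+/+ tumours. Of 561 lincRNA genes, 28 were called higher and 107 lower, and of 560 antisense genes 13 and 144. Ribosomal protein genes were mostly higher, with 61 of 76 called higher and 1 lower (median 0.94).

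Differences between the tumour sets also ran with gene length. Among protein-coding genes, the median log2 difference was 1.04 for genes up to 500 bases (89 genes), 0.22 for 2001 to 3000 bases (2402 genes) and -0.10 for genes over 6000 bases (4349 genes). The knockout tumours of the lines had medians of 0.77 and -0.02 at the ends of that range, and wild-type colitis had -0.11 and 0.02. With gene length as an offset, 2403 genes were called higher and 2464 lower, so that the share of higher calls was 49.4% in place of 58.9%. In that fit 14 of 18 neutrophil, 15 of 23 cytokine, 16 of 19 hypoxia and 15 of 21 heat shock genes were called higher and 12 of 16 goblet genes lower. The median lengths of these lists were 1885, 1875, 4114, 2967 and 2204 bases.

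**Figure D4:**
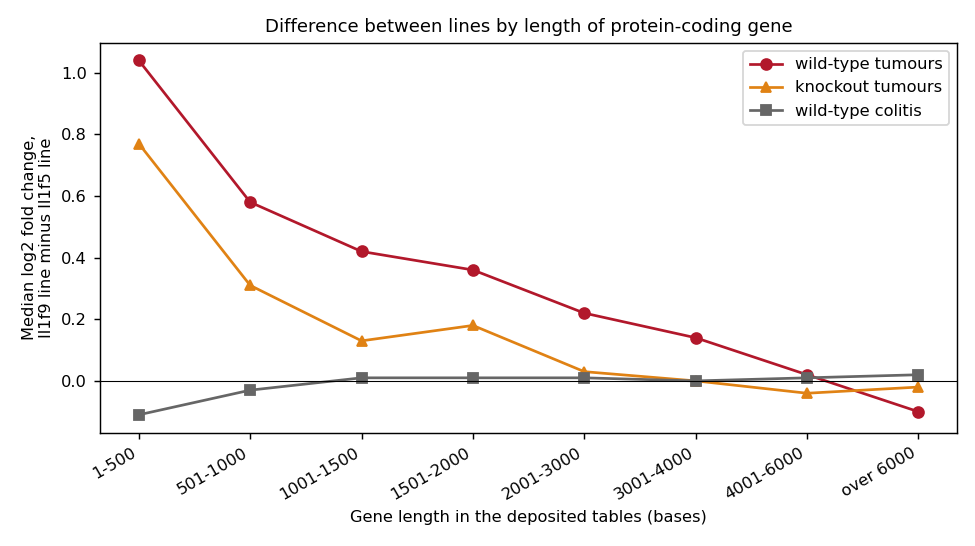
Median log2 difference between lines of protein-coding genes by gene length in bases, for wild-type tumours, knockout tumours and wild-type colitis. The tumour lines fall from 1.04 and 0.77 for the shortest genes to -0.10 and -0.02 for the longest, and the colitis line stays between -0.11 and 0.02.

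The knockout tumours gave a second comparison between the lines, in 4 other libraries. There, 2181 genes (12.2%) were called higher and 1756 (9.83%) lower in the tumours labelled Il1f9-/- than in those labelled Il1f5-/-. Of the 2999 genes higher in the wild types, 1354 were also called higher in the knockouts, which is 45.1% of the first set and 62.1% of the second, and 13 were called lower. Of the 2097 lower genes, 787 were shared (37.5% and 44.8%), and 20 were called in the opposite direction. Across the 17859 genes, which are not independent replicates, the differences in wild types and knockouts had a Pearson r of 0.574. The knockouts had 12 of 18 neutrophil genes higher (median 1.81), 9 of 23 cytokine genes (1.95), 10 of 19 hypoxia genes (0.62) and 10 of 21 heat shock genes (0.71). The goblet list had 1 higher and 2 lower (median -0.21), with Muc2 at 224 and 188 CPM in the Il1f9-/- tumours against 589 and 758 CPM in the Il1f5-/- tumours (-1.71, adjusted p = 0.00456). None of the 5 erythrocyte genes was called there, nor was any by edgeR at an unadjusted p under 0.05 or by the DESeq2 Wald test. The knockout calls numbered 643 in both directions without Il1f5-/- replicate 1 and 1749 without Il1f5-/- replicate 2, beside 3937 with all libraries.

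**Figure D5:**
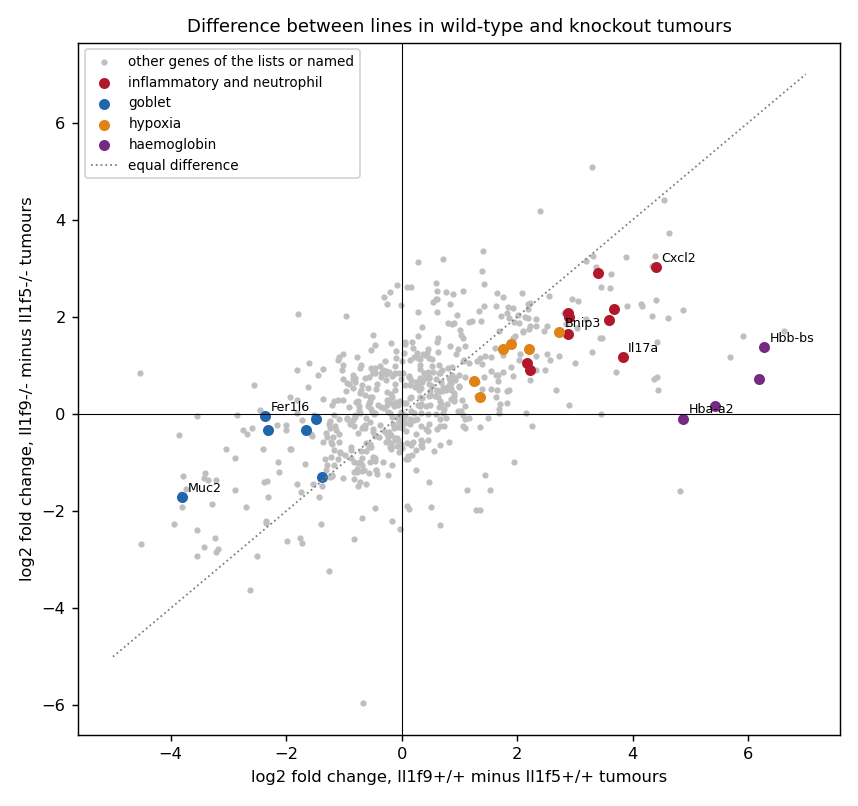
Log2 difference between lines in wild-type tumours (horizontal axis) and in knockout tumours (vertical axis) for genes of the lists or named by rule other than the targeted Il1f5 and Il1f9, with a dotted line where both are equal. Inflammatory and hypoxia genes lie above 0 on both axes, for example Cxcl2 at 4.41 and 3.02, while Hbb-bs lies at 6.28 and 1.37.

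Whether the difference between lines differed between wild types and knockouts was tested directly, and 14 genes (0.0784%) were called, 6 higher and 8 lower. At an unadjusted p under 0.05 there were 3076, and the DESeq2 Wald test called 543. Il1f9 was among the 14, at 0.119 and 0 CPM in the Il1f9-/- tumours and 6.38 and 7.29 CPM in the Il1f5-/- tumours (difference of differences 9.75 ± 0.95, adjusted p = 0.0315). Among fits without 1 wild-type library, the number called fell to 2 without Il1f5+/+ replicate 2, and to 8 without Il1f5+/+ replicate 1 or Il1f9+/+ replicate 1. No member of the goblet, neutrophil, cytokine, hypoxia or erythrocyte lists was called in this test by edgeR. At an unadjusted p under 0.05 there were 9 of 16, 7 of 18, 5 of 23, 9 of 19 and 5 of 5 members, beside 3076 of all 17859 genes. The DESeq2 Wald test called 7, 4, 4, 3 and 2 members, beside 543 genes in all. Where one of these lists had more calls in wild types than in knockouts, edgeR at an adjusted p under 0.05 did not show a difference between them. That outcome depended on the test, as the Wald calls show.

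In DSS colitis, fewer genes were called between the wild types of the lines. Of 18299 genes tested, 594 (3.25%) were higher in colon labelled Il1f9+/+ and 308 (1.68%) lower. The number of calls depended on single libraries, from 118 without colitis Il1f9+/+ replicate 2 to 1126 without Il1f9+/+ replicate 1, with 151 and 154 without Il1f5+/+ replicates 1 and 2. Of 2915 genes higher in the tumours and tested in both tissues, 196 were called higher in colitis (6.72%, or 34.3% of the colitis calls) and 66 lower. Of 1979 genes lower in the tumours, 33 were called lower (1.67%, or 10.7%) and 44 higher. Across genes the Pearson r was 0.0295. Neutrophil genes had 2 of 18 called higher in colitis with a median of 1.88, and hypoxia genes 1 of 19 with a median of 0.04. Muc2 differed by -0.62 (adjusted p = 0.0792) and Slc2a1 by -0.01 (adjusted p = 0.96). In colitis, 12 of 29 matrix genes and 15 of 20 macrophage genes were called higher. Per library total, mitochondrial tRNAs stood at 77.3 and 78.1 CPM in the Il1f9+/+ colons beside 70.1 to 81.7 in the Il1f5+/+ colons.

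A direct test of the tumour difference against the colitis difference, over all 18 libraries, called 5782 of 19514 genes (29.6%). It shares the tumour libraries with the tumour comparison. Of the tumour calls, 2228 higher genes were also more positive in tumours than in colitis, and 1645 lower genes more negative. By list, the difference was more positive in tumours for 13 of 19 hypoxia genes and 15 of 21 heat shock genes. In colitis itself, 6 of the 21 heat shock genes were called lower in Il1f9+/+ and none higher (median -0.27), beside 1.68% of all genes called lower. Junction genes had 11 of 20 more positive and 2 more negative. The difference was more negative for 8 of 16 goblet genes and 18 of 29 matrix genes. Cytokine genes had 5 of 25 more positive and none more negative, below the 29.6% of all genes called, which covers both directions. The median difference of differences of that list was 2.22. Of its members, 14 had an unadjusted p under 0.05 by edgeR, and the DESeq2 Wald test called 8. None of the 18 neutrophil genes was called in either direction by edgeR, 5 had an unadjusted p under 0.05, and the DESeq2 Wald test called 2. Dnajb1 was among the clearest, higher in Il1f9+/+ tumours as given above, and lower in Il1f9+/+ colitis (81.5 and 67.5 CPM against 138, 133 and 135 CPM), with a difference of differences of 2.38 ± 0.19 (adjusted p = 1.73e-05). Wnk2, a kinase of the WNK family, was at 2.81 and 3.71 CPM in the Il1f9+/+ tumours against 20.8 and 16.4 CPM in the Il1f5+/+ tumours, while all 5 wild-type colitis libraries lay between 20.5 and 28.2 CPM (difference of differences -2.81 ± 0.22, adjusted p = 1.73e-05).

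Genes of the Y chromosome were present in all 8 tumours, with Uty at 48.4 and 60.9 CPM in the Il1f9+/+ tumours and 27.8 and 24.2 CPM in the Il1f5+/+ tumours (1.07 ± 0.17, adjusted p = 0.00306), and Xist, the RNA of the inactive X chromosome, did not exceed 0.205 CPM. Among 9 tested Nlrp1 and Schlafen genes of chromosome 11, which are known to vary between mouse strains, 4 were called higher and none lower. Without either Il1f5+/+ library 1 was called and without Il1f9+/+ replicate 1 there were 2, and in the knockouts 3 members were called higher. Slfn8 was at 5.43 and 3.54 CPM against 0.514 and 0.196 (3.63 ± 0.67, adjusted p = 0.00553), with a difference of 3.12 to 4.48 over the fits that left out 1 library each. The highest of these was without Il1f5+/+ replicate 1. In wild-type colitis of the same lines, 0 of 11 tested members of this chromosome 11 list were called higher and 1 lower (median -0.15). The difference was more positive in tumours than in colitis for 5 of the 11. The summed level of the list was 860 and 382 CPM in the Il1f9+/+ tumours against 333 and 339 CPM in the Il1f5+/+ tumours. Of 5 tested genes that are known to differ between C57BL/6 substrains, 1, Nlrp12, was called higher, a call that held without Il1f9+/+ replicate 2 and in no other fit with 1 library left out, and whether the lines share a substrain was not tested.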

How the data were processed

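RNA was sequenced as poly(A) libraries made without strand information from 10 µg of total RNA with paired reads of 150 bases, per the labels' protocols. The submitters' processing notes name Trim Galore 0.6.4, HISAT2 2.0.5 and featureCounts 2.0.0. No source used here gives the genome build, so gene positions are those of the deposited tables. The deposited tables, 3 in number, hold the authors' unscaled read counts per gene for 54532 genes. The 2 tumour tables were joined by gene identifier, and 11 gene names that differed in the colitis table were taken from the tumour tables.

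Counts were tested with edgeR 4.0.16 (R 4.3.3, limma 3.58.1), with TMM scaling, the filterByExpr filter, a group-means model over the 8 tumour libraries (10 in colitis, 18 for the test between tissues) and its robust quasi-likelihood F test. A gene was called where its p, adjusted by Benjamini-Hochberg over all genes tested, was under 0.05. Log2 differences are Il1f9 line minus Il1f5 line, with standard errors. CPM were computed here from the counts with TMM factors. Between libraries of a group the chi-square per gene ran from 6.62 to 104, so none was a copy. The pipeline was tested on simulated counts.

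The members, the 36 gene lists, the tests and the naming rule were chosen with earlier results of these data known. The rule took the IL-36 axis, the 15 largest rises and 15 largest falls among called genes with a mean log2 CPM of at least 1 and non-overlapping groups (without predicted genes, pseudogenes or antigen receptor segments), up to 4 called members of each list with the smallest p, the first 2 members of 12 central lists, the 5 genes with the smallest p of each test of a difference between differences, sex-linked genes, and called genes of the chromosome 11 and substrain lists. Some of these are given, some genes the rule took are not reported here, and other list members were named with their values in view. The alternatives comprised size factors and the Wald test of DESeq2 1.42.0, no filter, a replicate block, the 4 wild-type tumours alone, all 18 libraries, an absolute log2 change of at least 1, and each library left out. Where this left 1 library in a group, it was assumed to vary like the other groups. Scaling by library totals and offsets for gene length, without or with GC content, were added after seeing the data. Summaries used pandas 2.3.3 and numpy 2.4.6 in Python 3.11.15, and figures matplotlib 3.10.9.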

Additional observations from a re-analysis of the deposited data

Results flagged for a closer look

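The difference between wild-type lines differed between tumours and colitis for the following genes, by edgeR's test of the difference itself over all 18 libraries. The differences of differences were 2.38 for Dnajb1 and -2.81 for Wnk2, both described above, 3.01 for Avpi1 and 2.41 for Fam213a, each with an adjusted p of 2.06e-05 or less. Avpi1, a gene induced by vasopressin, was at 151 and 117 CPM in the Il1f9+/+ tumours and 20.3 and 28.1 CPM in the Il1f5+/+ tumours, and at 5.91 and 6.04 against 8.63, 8.95 and 8.80 CPM in colitis. Its difference in colitis was not called (adjusted p = 0.0676). Fam213a was at 98.5 and 83.4 against 17.2 and 15.1 CPM in the tumours and differed by 0.06 in colitis (adjusted p = 0.866).

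The difference between tumour lines differed between wild types and knockouts for 5 further genes, by the same kind of test over the 8 tumours. For Il1f9, the gene targeted in one line, the difference of differences was 9.75. Trp53, the tumour suppressor p53, was at 116 and 116 CPM in the tumours labelled Il1f9+/+, 115 and 103 CPM in those labelled Il1f5+/+ and 101 and 93.8 CPM in those labelled Il1f9-/-, but at 15.1 and 16.7 CPM in those labelled Il1f5-/- (difference of differences -2.53 ± 0.20, adjusted p = 0.0064). Ephx1, an epoxide hydrolase of xenobiotic metabolism, was lowest in the same 2 libraries, at 4.69 and 5.24 CPM, with 36.4 and 30.3 CPM in Il1f9+/+, 19.0 and 21.6 CPM in Il1f5+/+ and 51.7 and 38.7 CPM in Il1f9-/- tumours (-2.47 ± 0.29, adjusted p = 0.0315). Camk2b, a calcium-dependent kinase, was at 0.179 and 0.287 CPM in the Il1f9-/- tumours and between 9.64 and 19.0 CPM in the other 6 (5.30 ± 0.46, adjusted p = 0.00823). Mcpt1, a mucosal mast cell protease, was at 122 and 152 CPM in Il1f9+/+ and 60 and 46.8 CPM in Il1f5+/+ tumours, against 67.2 and 54.3 CPM in Il1f9-/- and 176 and 300 CPM in Il1f5-/- tumours (3.33 ± 0.38, adjusted p = 0.0333). The libraries that stood apart were those labelled Il1f5-/- for Trp53 and Ephx1, and those labelled Il1f9-/- for Camk2b. Il1f5 counts go against the Il1f5 labels. Causes were not tested.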

How the results depend on the processing

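No called gene named by the rule changed direction under any alternative run. Of 150 such genes, 41 to 60 lost their call with 1 wild-type tumour library left out, 17 with a length and GC offset, 16 with library totals, 13 with a length offset, 12 with the replicate block and up to 6 otherwise. Genes called higher numbered 2999 (1008 to 1961 with 1 library left out, 1174 with library totals, 1323 at an absolute log2 change of at least 1). Genes called lower numbered 2097 (512 to 930 with 1 library left out, 3245 with the 4 wild-type tumours alone, 3649 with all 18 libraries, 4830 with library totals). With DESeq2 size factors, the Wald test, no filter or the length offsets both counts stayed within 1.5 times. The knockout count of 3937 became 643 to 4672 with 1 library left out and 1886 at the larger change. The wild-type colitis count of 902 became 118 to 1126 with 1 library left out, 2052 by the Wald test, 1712 with no filter, 303 with the replicate block and 339 at the larger change. The test between tissues called 5782, 3961 to 4870 with 1 wild-type tumour library left out and 3501 at the larger change. The test between wild types and knockouts called 14, then 25 with DESeq2 size factors, 543 by the Wald test, 1362 with no filter, 4 with the replicate block and 2 to 10 with 1 wild-type library left out. No knockout or colitis library was left out in these 2 tests. Fits with fewer libraries have fewer degrees of freedom, and otherwise the cause was not tested. The replicate block gave 2679 higher and 1854 lower genes in the wild-type tumours. Labels do not pair the libraries, and same-numbered libraries deviated together with r = 0.0868 in wild types and 0.014 in knockouts, so they share only a number. With 2 libraries a group, and each line in its own table, the spread within groups is measured poorly, and line, table and library makeup cannot be told apart. Intervals that allow up to 3 counts for a count of 0 cover counting error only.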
